A study of Mus musculus with 6 samples.

Results

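The CC chemokines examined here were 10 mouse genes, Ccl2, Ccl3, Ccl4, Ccl5, Ccl6, Ccl7, Ccl8, Ccl9, Ccl12 and Ccl22. They were chosen by symbol, and all 10 were found among the 22547 genes listed in the count tables of 6 single-cell RNA libraries from mouse mammary tumours. The question was which cell class held the transcripts of each chemokine in each library. Primary, Dormant, Long-term dormant and Recurrent tissue formed a stage table from version 2 of the Chromium reagents. A second table, from version 3, held residual tissue after a control IgG antibody or after an antibody to the Notch ligand Jagged-1 (the library Jag1).

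CC chemokines are small secreted proteins with a pair of adjacent cysteines. They bind G protein-coupled receptors on leukocytes and set where these cells migrate. Ccl2, Ccl7 and Ccl12 recruit monocytes through CCR2, and Ccl8 belongs to the same chromosomal cluster of monocyte chemoattractant proteins. Ccl3, Ccl4 and Ccl5 attract T cells, NK cells and monocytes, Ccl6 and Ccl9 are rodent ligands of CCR1, and Ccl22 attracts regulatory T cells through CCR4. In mammary tumours this family is best known for the recruitment of macrophages.

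All libraries came from tumours transplanted into mammary glands, with a genotype given as MMTV-Wnt1/iFGRR followed by a numeral from 1 to 6 that differs by library, in FVB (FVB.rGH-Luc-GFP) mice. The MMTV promoter drives its transgene mainly in mammary epithelium. Hosts of every group received the B/B homodimerizer every 3 days at the start of tumour growth. The Primary tumour was from mice of 8 to 10 weeks, the Dormant tissue from 10 to 12 weeks, the Recurrent tumour from 20 to 22 weeks and the Long-term dormant tissue from 32 to 34 weeks. Residual tissue was obtained after 14 days of the FGFR inhibitor NVP-BGJ398 and 14 days without it. Recurrent tumours grew when mice were then left untreated. IgG and Jag1 mice, aged 16 weeks, received 15 mg/kg of antibody weekly for 5 weeks and were sampled 1 week later. Stage and age therefore cannot be told apart, and cells of all groups were frozen, thawed and sorted as live before capture. How many animals each library holds is not given in the sources used here.

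Every group was 1 library, so no difference between groups has a replicate check and no p-value is given. Cells are not replicates. Each interval is a 95% interval for counting error alone. A level is given in CPM, the UMIs (distinct counted transcripts) of a gene per 1000000 UMIs of a class or library. The filtered libraries held 9671551 to 40083816 UMIs in 2117 to 5867 cells, with medians of 2738.5 to 7502.5 UMIs per cell. Stage libraries shared 26 to 50 cell barcodes per pair, whereas IgG and Jag1 shared 131, which is 6.14% of the smaller library. The stage and antibody tables were not compared, because the kits differ.

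The macrophage- or monocyte-like class, named here from its markers, is referred to as the macrophage class. It held 1260, 206, 1128 and 1271 cells in Primary, Dormant, Long-term dormant and Recurrent tissue, and 54 and 43 in IgG and Jag1. Its composition differed between stages. Clusters 3 and 10, both led by the complement genes C1qa, C1qb and C1qc, held 633 and 397 of the Primary cells and 870 and 138 of the Recurrent cells. Cluster 4, led by Retnla, Pf4 and Wfdc17, held 151 of the 206 Dormant cells and 1120 of the 1128 Long-term dormant cells. Cluster 19, led by Mmp12, Hmox1 and Arg1, held 175 Primary and 118 Recurrent cells and at most 1 cell elsewhere. Epithelial-like cells numbered 2105, 306, 165 and 2657 across the stages but 12 and 15 in IgG and Jag1, so the antibody libraries give almost no view of tumour cells.

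In the mm10 annotation of GENCODE, 9 of the 10 genes lie on chromosome 11 in 2 groups. Ccl2 (82035571 to 82037453), Ccl7 (82045712 to 82047525), Ccl12 (82101845 to 82103400) and Ccl8 (82115185 to 82116799) are neighbours on the plus strand. Ccl5 (83525778 to 83530518), Ccl9 (83572919 to 83578636), Ccl6 (83587882 to 83593087) and Ccl3 (83647844 to 83649355) are on the minus strand, next to Ccl4 (83662584 to 83664683) on the plus strand. Ccl22 is on chromosome 8 (94745590 to 94751699, plus strand). RefSeq promoter sequences matched 6 of the 10 members, namely Ccl3, Ccl6, Ccl8, Ccl9, Ccl12 and Ccl22. The 250 bases upstream of 4 of them follow, 5′ to 3′ on the gene's own strand in GRCm38.p6. Ccl6 and Ccl9 are shown because they had the same largest cell source in every library, and Ccl8 and Ccl12 because the largest source of these neighbours differed in Long-term dormant tissue. Ccl6 spans chr11:83593088-83593337 and Ccl9 chr11:83578637-83578886, both minus strand. Ccl8 spans chr11:82114935-82115184 and Ccl12 chr11:82101595-82101844, both plus strand. Capitals mark motif matches.
Ccl6: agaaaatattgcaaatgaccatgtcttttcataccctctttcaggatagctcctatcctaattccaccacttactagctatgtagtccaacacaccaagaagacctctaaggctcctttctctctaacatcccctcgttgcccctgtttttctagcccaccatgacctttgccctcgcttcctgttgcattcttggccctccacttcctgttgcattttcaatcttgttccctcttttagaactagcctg
Ccl9: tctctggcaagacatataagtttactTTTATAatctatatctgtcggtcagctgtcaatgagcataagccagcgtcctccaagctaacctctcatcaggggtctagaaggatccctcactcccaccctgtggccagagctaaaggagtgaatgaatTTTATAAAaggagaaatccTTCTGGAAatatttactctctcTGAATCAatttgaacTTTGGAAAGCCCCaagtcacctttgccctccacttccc
Ccl8: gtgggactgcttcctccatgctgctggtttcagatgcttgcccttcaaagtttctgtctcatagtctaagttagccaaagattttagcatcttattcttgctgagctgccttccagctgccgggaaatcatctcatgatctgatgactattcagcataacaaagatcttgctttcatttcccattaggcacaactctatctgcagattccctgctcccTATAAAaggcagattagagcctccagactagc
Ccl12: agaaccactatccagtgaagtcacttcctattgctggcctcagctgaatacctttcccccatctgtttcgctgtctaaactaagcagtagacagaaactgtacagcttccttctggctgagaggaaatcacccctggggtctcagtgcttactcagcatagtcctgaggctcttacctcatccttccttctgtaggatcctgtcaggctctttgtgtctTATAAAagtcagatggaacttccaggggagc

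The motifs searched on both strands were the NF-kB consensus, AP-1 (TGANTCA), C/EBP (TTNNGNAA), PU.1 (GAGGAAGT), the interferon-stimulated element and the TATA box (TATAAA). In the same 250 bases of 32851 promoters they were present in 3.90%, 6.75%, 36.8%, 2.44%, 2.98% and 12.4%. Ccl8 held TATAAA 32 to 27 bases before its start and Ccl12 held it 31 to 26 bases before. Ccl9 held the NF-kB consensus 35 to 26 bases before its start, overlapping a C/EBP match at 38 to 31. It also held an AP-1 match at 53 to 47, a second C/EBP match at 75 to 68 and TATAAA at 92 to 87, with its minus-strand match at 94 to 89 overlapping it and another at 224 to 219. No motif of the set was in the Ccl6 window. These matches describe letters in the sequence and not bound sites.

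The source of each chemokine was taken as the class that held the largest share of its UMIs, for members with at least 20 UMIs in a library. Macrophage-class cells were the largest named source of 8 of 10 members in Primary and in Recurrent tissue, 6 of 10 in Dormant and 4 of 10 in Long-term dormant tissue. In IgG they led for 5 of 8 members and in Jag1 for 6 of 9. Of these, Jag1 Ccl7 (82 UMIs) had 35.4% in the macrophage class and 59.8% in clusters that stayed unnamed. The macrophage class held 9827647 of 26871247 UMIs in Primary, 978829 of 13976218 in Dormant and 3624104 of 21330880 in Long-term dormant tissue. In Recurrent tissue it held 8698114 of 40083816, in IgG 427019 of 9671551 and in Jag1 204130 of 14716263. How many of all genes had this largest source was not counted, so the source counts have no background. Ccl6 and Ccl9 had the macrophage class as largest source in every library, with shares of 77.3% to 94.5% for Ccl6 and 64.9% to 96.2% for Ccl9. The lowest Ccl9 share was that of Dormant tissue, where T-like cells held 18.5%. There, 1 T-like cell with 63410 UMIs in total held 17.1% of all Ccl9 UMIs. Ccl12 came from it in all 5 libraries with at least 20 UMIs, at shares of 84.9% to 98.1%. Ccl5 had T-like or dendritic-like cells as its largest source in every library, and Ccl22 had dendritic-like cells in the 4 stage libraries. In classes other than the macrophage class, 118 pairs of member and class in a library had at least 20 UMIs. Of these, 77 lay over 4 times the level that free macrophage RNA would give, an estimate described with the fibroblast-like values. Pairs with fewer UMIs and classes under 50 cells were left out, so 77 of 118 is not a share of all pairs. Dormant T-like Ccl9, at 22.0 times, is among the 77 although most of its UMIs lay in the 1 cell named above. This count does not cover free RNA from other cells. Dormant epithelial-like Ccl5 was at 167 times the macrophage estimate but 0.99 times an estimate from T cells. Dormant epithelial-like Ccl2 was at 11.3 times the macrophage estimate but 1.70 times an estimate from fibroblasts.

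**Figure D1:**
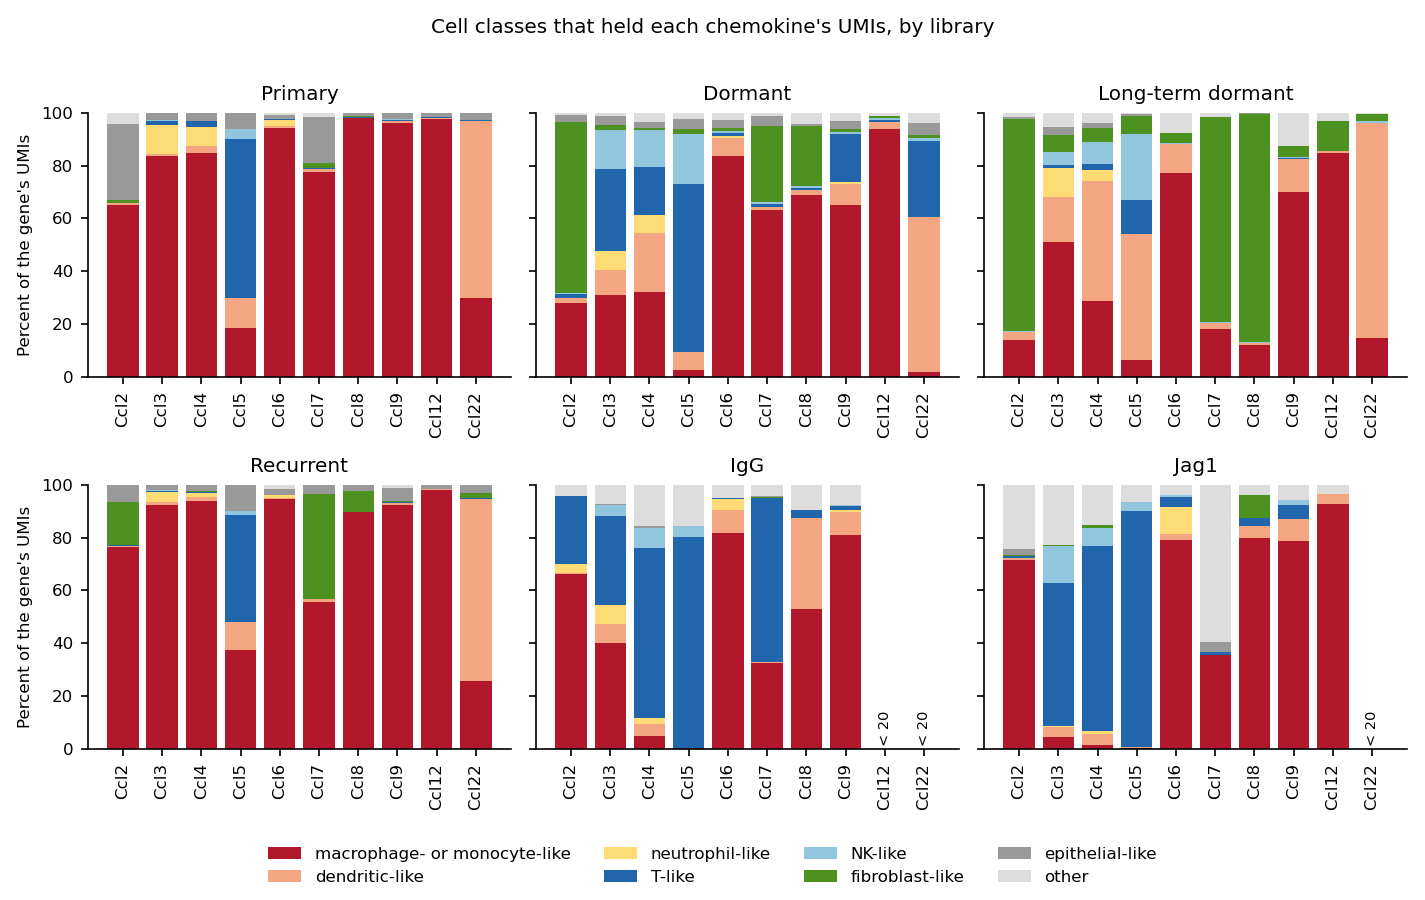
Share of the UMIs of each chemokine (percent, vertical axis) by cell class, 1 panel for each library, with bars left out where a gene had under 20 UMIs. Macrophage-class cells fill most of the bars in Primary and Recurrent tissue, fibroblast-like cells take over Ccl2, Ccl7 and Ccl8 in Long-term dormant tissue, and T-like cells fill the Ccl5 bar in the antibody libraries.

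Ccl2, the classical monocyte attractant, changed source between libraries. Macrophage-class cells held 65.3% of its UMIs in Primary tissue, 27.9% in Dormant tissue, 13.9% in Long-term dormant tissue and 76.4% in Recurrent tissue. Fibroblast-like cells held 64.6% in Dormant tissue, 80.7% in Long-term dormant tissue and 16.3% in Recurrent tissue, and 1.23% in Primary tissue, which had 7 such cells. Per library, Ccl2 was at 99.96 CPM in Primary tissue, 193 in Dormant tissue, 442 in Long-term dormant tissue and 99.99 in Recurrent tissue. The library level was thus highest where the fibroblast-like share was highest, and fibroblast-like cells were 0.164%, 9.16%, 49.4% and 2.25% of the cells in these libraries.

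Within the macrophage class, Ccl2 was at 178 CPM (170 to 187) in Primary cells, 767 (713 to 824) in Dormant cells, 363 (344 to 383) in Long-term dormant cells and 352 (340 to 365) in Recurrent tissue. Dormant macrophage-class cells were highest, with a log2 ratio to Primary of 2.11 (1.98 to 2.23). The ratio was -1.08 for Long-term dormant against Dormant tissue. For Recurrent against Dormant tissue it was -1.12, and -0.86 without the cell richest in Ccl2 in each library.

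Ccl7, a monocyte attractant whose gene lies next to Ccl2, was at 151, 799, 392 and 142 CPM in the macrophage class of Primary, Dormant, Long-term dormant and Recurrent tissue. A single Dormant cell with 5271 UMIs held 25.2% of the Dormant class's Ccl7 UMIs, and the same cell was the richest in Ccl2 and Ccl12 in that library. Without the richest cells, the log2 ratio of Ccl7 between Long-term dormant and Dormant tissue was -0.68 in place of -1.03. The Ccl7 ratio of Dormant to Primary tissue was 2.40, and 2.23 without those cells.

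Ccl8 was at 144 CPM (137 to 152) in Primary cells, 1106 (1042 to 1174) in Dormant cells, 233 (217 to 249) in Long-term dormant cells and 331 (319 to 344) in Recurrent macrophage-class cells. The Dormant level was again the highest. Ccl8 was concentrated in few cells, since 50% of its UMIs lay in 8 cells of Primary, 11 of Dormant and 9 of Recurrent tissue but in 193 cells of Long-term dormant tissue. Ccl12, the fourth of these neighbours, was at 199, 192, 37.3 and 362 CPM, so its pattern across the stages differed from that of Ccl2, Ccl7 and Ccl8.

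**Figure D2:**
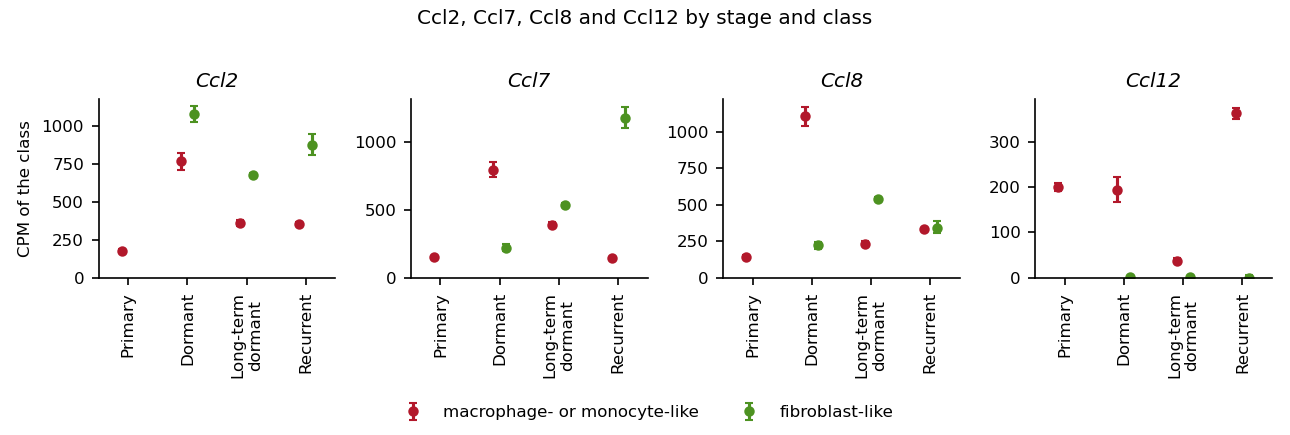
Levels of Ccl2, Ccl7, Ccl8 and Ccl12 (CPM of the class, vertical axis) in macrophage-class and fibroblast-like cells of each stage library with at least 50 cells of the class, with 95% Poisson bars. Within the macrophage class, Ccl2, Ccl7 and Ccl8 were highest in Dormant tissue, and Ccl12 was at most 1.60 CPM in fibroblast-like cells.

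Fibroblast-like cells held Ccl2, Ccl7 and Ccl8 but almost no Ccl12. Their Ccl2 was at 1080 CPM (1029 to 1131) in Dormant cells, 677 (662 to 693) in Long-term dormant cells and 878 (812 to 948) in Recurrent tissue. Their Ccl7 was at 222 (200 to 246), 538 (524 to 552) and 1183 (1106 to 1264) CPM in the same order. Their Ccl8 was at 222 (200 to 246), 542 (529 to 556) and 344 (303 to 389) CPM. Ccl2 was therefore highest in Dormant, Ccl8 in Long-term dormant and Ccl7 in Recurrent fibroblast-like cells. Ccl12 was at 1.24 and 1.60 CPM in Dormant and Long-term dormant tissue and had 0 UMIs in Recurrent tissue, which allows up to 4.03 CPM.

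Against Dormant tissue, 4 of 9 members were over 2-fold higher in Long-term dormant fibroblast-like cells, where 7.47% of 11200 genes were, and 1 was over 2-fold lower, where 9.94% were. The 4 were Ccl7 (log2 ratio 1.28, 1.12 to 1.43), Ccl8 (1.29, 1.13 to 1.45), Ccl6 and Ccl9. Free RNA from lysed macrophages was estimated by assuming that it carries each chemokine in the macrophage class's own ratio to C1qa, C1qb and C1qc. By that estimate Ccl6 and Ccl9 were at 0.92 and 1.11 times the free-RNA level in Long-term dormant fibroblast-like cells, whereas Ccl2, Ccl7 and Ccl8 were at 110, 80.7 and 137 times. In Recurrent against Dormant fibroblast-like cells, 2 of 7 members were over 2-fold higher (5.64% of genes) and 2 lower (10.8% of genes). Ccl7 was higher by a log2 ratio of 2.41 (2.24 to 2.60), but by 0.85 (0.61 to 1.09) within cluster 2 (72 Dormant and 55 Recurrent cells), which is under 2-fold. In cluster 6, with 93 Dormant and 45 Recurrent cells, Ccl7 was at 185 and 1591 CPM. Ccl4 was also higher, with 69.0% of its UMIs in 1 cell.

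The lower fibroblast-like Ccl2 of Long-term dormant tissue was not seen within each fibroblast-like cluster. Cluster 24, led by Crabp1, Apod and Igfbp7, had 132 cells in Dormant and 18 in Long-term dormant tissue, and held 45.6% of all Dormant Ccl2 at 1777 CPM. In cluster 6, led by Pi16, Clec3b and Smpd3, Ccl2 was at 105 CPM in Dormant and 653 in Long-term dormant tissue, a log2 ratio of 2.63 (2.23 to 3.08). In cluster 2, led by Gsn, Bgn and Col1a2, it was at 1008 and 753 CPM, a ratio of -0.42 (-0.56 to -0.28). Ccl8 was higher in Long-term dormant cells of both clusters, by 1.95 (1.60 to 2.35) in cluster 6 and 0.73 (0.51 to 0.97) in cluster 2. Ccl7 was higher by 1.42 (1.12 to 1.76) in cluster 6 and by 0.35 (0.16 to 0.55) in cluster 2, and in the Dormant cells of cluster 24 it was at 43.4 CPM.

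Among genes of handling stress, heat shock genes were highest in the Dormant library in these cells, whereas early response genes went both ways. Of 13 heat shock and early response genes, 6 were over 2-fold lower and 1 higher in Long-term dormant than in Dormant fibroblast-like cells, and again 6 and 1 in Recurrent cells. The lower genes were Hspa1a, Hspa1b, Hspa8, Hsp90aa1, Dnajb1 and Ier2 in both comparisons. The higher gene was Fosb (log2 ratios 1.62 and 1.16). Egr1 gave 0.55 and 0.34, and Junb -0.41 and -0.47. Of all genes, 9.94% were lower and 7.47% higher in Long-term dormant cells, and 10.8% and 5.64% in Recurrent cells. Hspa1a, a heat shock chaperone, was at 1890 CPM in Dormant, 98.2 in Long-term dormant and 65.8 in Recurrent fibroblast-like cells. It was also among the leading genes of cluster 24, which had 132 Dormant, 18 Long-term dormant and 1 Recurrent cells. Its level within single clusters is not given here. In the macrophage class 4 of the 13 were higher (11.8% of all genes) and 0 lower (10.1%) in Dormant than in Primary cells. Against Dormant cells, 7 were lower (6.26% of all genes) and 0 higher (11.2%) in Long-term dormant cells. In Recurrent cells, 6 were lower (10.4%) and 0 higher (9.93%). Hspa1a was at 288, 996, 53.3 and 86.2 CPM in the macrophage class of Primary, Dormant, Long-term dormant and Recurrent tissue. The part of handling stress in the chemokine differences was not tested.

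Epithelial-like cells, which include the tumour cells, were a second source of Ccl2 and Ccl7 in Primary tissue. They held 28.6% of Primary Ccl2 and 17.7% of Primary Ccl7. Epithelial-like Ccl2 was at 54.2 CPM (50.4 to 58.1) in Primary cells, 28.5 in Dormant cells, 48.0 in Long-term dormant cells and 9.00 (7.93 to 10.2) in Recurrent tissue. The Primary level was 25.9 times the free-RNA estimate and the Recurrent level 3.86 times. Primary Ccl2 was uneven over the class, since 61 of its 2105 cells, those of cluster 21, were at 1353 CPM. The Primary class level therefore does not describe epithelial-like cells in general. Free RNA from fibroblasts, estimated in the same way from Col1a1, Col3a1 and Dcn, puts the Dormant and Long-term dormant Ccl2 levels at 1.70 and 1.54 times background. The log2 ratio of Recurrent to Primary epithelial-like cells was -2.59 (-2.80 to -2.38) for Ccl2 and -3.24 (-3.63 to -2.87) for Ccl7. These cells lay in different clusters, since cluster 0 held 2130 of the Recurrent and 85 of the Primary cells, and cluster 1 held 190 and 1316. Within single clusters with at least 50 cells in both libraries, Ccl2 gave -3.16 in cluster 0, -1.56 in cluster 1, -1.52 in cluster 14 and -5.75 in cluster 21. Cluster 21, led by Csn2, Igtp and Csn3, had Ccl2 at 1353 CPM and Ccl7 at 615 CPM in its 61 Primary cells, against 24.8 and 2.25 CPM in its 99 Recurrent cells. In the other 3 clusters Ccl7 was at most 7.48 CPM in either library, and its ratio was -1.11 (-3.64 to 0.30) in cluster 1 and 0.01 (-1.96 to 5.91) in cluster 0. The lower Recurrent Ccl7 was therefore seen in cluster 21, whereas in clusters 0, 1 and 14 its intervals included 0. Recurrent epithelial-like Ccl3, Ccl4, Ccl6, Ccl8 and Ccl12 lay at 0.67 to 1.14 times the free-RNA level.

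Ccl6 and Ccl9 are constitutively made by myeloid cells of rodents. In the macrophage class Ccl6 was at 188 CPM (180 to 197) in Primary cells, 1347 (1275 to 1421) in Dormant cells, 1966 (1920 to 2012) in Long-term dormant cells and 389 (376 to 403) in Recurrent tissue. Ccl9 was at 382 (370 to 395), 1191 (1124 to 1262), 1321 (1283 to 1359) and 404 (390 to 417) CPM. Over the whole class, both genes were higher in the residual tissues than in the tumours, and neither differed over 2-fold between Dormant and Long-term dormant cells. Cells thinned to 1000 UMIs, which left out 4 to 153 cells of the class per library, had a Ccl6 UMI in 12.3%, 51.6%, 68.7% and 18.4% of macrophage-class cells, against 49.9%, 63.6%, 81.2% and 49.8% before thinning. In epithelial-like cells, a class that should lack Ccl6, the thinned share was 0.14% in Primary cells, 1.32% in Dormant and 0.11% in Recurrent tissue. Median depths were 2606.5 to 7318.5 UMIs for the macrophage class and 4444 to 9491 for epithelial-like cells.

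Counted over the macrophage class, 6 of 10 members were over 2-fold higher in Dormant than in Primary tissue, where 11.8% of 9519 genes were, and 1 was over 2-fold lower, where 10.1% were. The higher members were Ccl2, Ccl5, Ccl6, Ccl7, Ccl8 and Ccl9, with log2 ratios of 1.64 to 3.19, and the lower member was Ccl3. The members' median log2 ratio was 1.87 and that of all genes 0.05. These numbers compare cluster 4 in Dormant with mostly clusters 3 and 10 in Primary tissue. C1qa, C1qb and C1qc together were at 14727 CPM in the Primary class, 4974 in Dormant cells, 737 in Long-term dormant cells and 13918 in Recurrent tissue.

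Within cluster 4 alone, 1 of 9 members was over 2-fold higher in Dormant than in Primary tissue (10.2% of genes) and 1 was lower (5.98% of genes). The higher gene was Ccl5 and the lower was Ccl3, and the members' median log2 ratio was 0.09. Cluster 4 held 55 Primary cells. Its Ccl6 was at 1951 CPM in Primary and 2074 in Dormant tissue, a log2 ratio of 0.09 (-0.06 to 0.24), whereas the whole class gave 2.84 (2.74 to 2.94). Ccl8 gave -0.47 (-0.65 to -0.28) within the cluster and 2.94 (2.82 to 3.05) in the class, and Ccl7 gave -0.95 (-1.11 to -0.79) and 2.40. Ccl7 in the Primary cells of cluster 4 had 40.2% of its UMIs in 1 cell. Most of the Dormant-to-Primary differences of the class were therefore not seen within cluster 4. Clusters 3 and 10, which held most Primary cells, had 38 and 17 Dormant cells, too few for such a comparison.

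**Figure D3:**
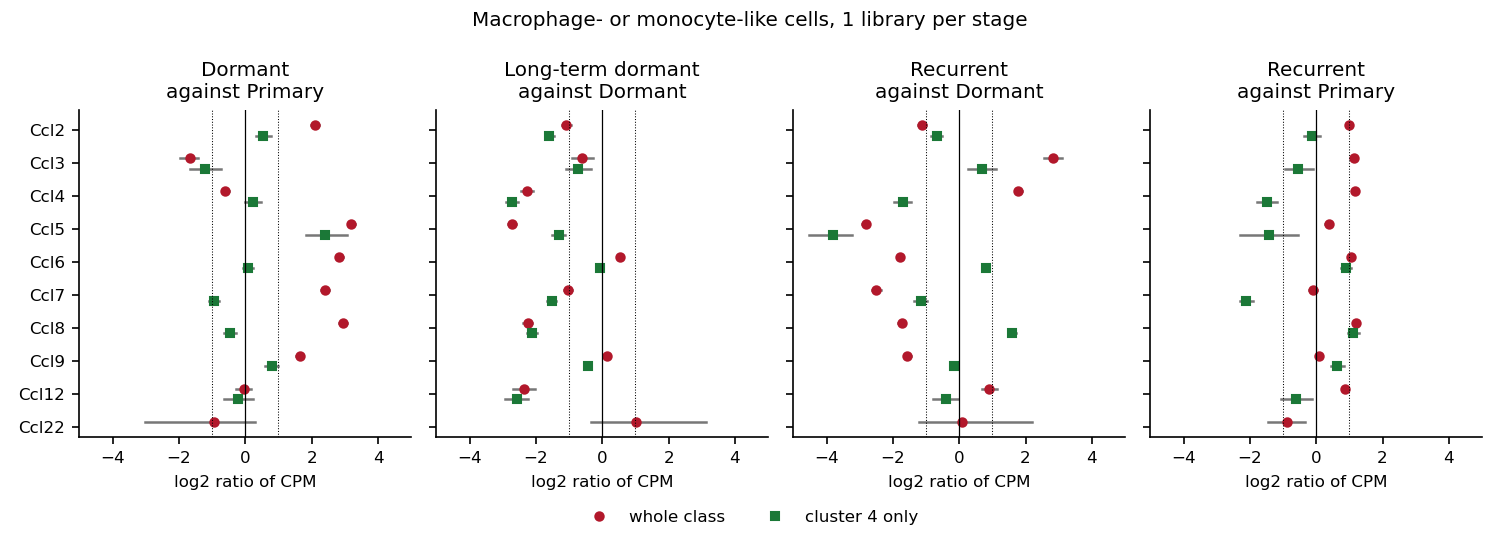
Log2 ratios of each chemokine between stages (horizontal axis, bars for 95% counting intervals) in the whole macrophage class (red circles) and in cluster 4 alone (green squares). For Dormant against Primary tissue the class values of Ccl6, Ccl7 and Ccl8 lie between 2.40 and 2.94, and the cluster 4 values between -0.95 and 0.09.

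Between Long-term dormant and Dormant tissue, where cluster 4 held most of the class in both libraries, 6 of 10 members were over 2-fold lower in the class (6.26% of 8435 genes) and 1 was higher (11.2% of genes). The higher member was Ccl22, from 33 against 4 UMIs, with an interval of -0.34 to 3.11. Within cluster 4, 6 of 10 were lower (7.35% of genes) and 1 higher (10.7% of genes), again Ccl22, which had 0 UMIs in Dormant cells (a count that allows up to 4.86 CPM) and 9.19 CPM in Long-term dormant cells. Both sets of 6 were Ccl2, Ccl4, Ccl5, Ccl7, Ccl8 and Ccl12. In cluster 4, Ccl4 was at 860 CPM in Dormant and 130 in Long-term dormant tissue, a log2 ratio of -2.72 (-2.91 to -2.54). Ccl12 was at 225 and 37.6 CPM (-2.58, -2.93 to -2.23), Ccl8 at 1026 and 235 (-2.13, -2.28 to -1.98) and Ccl2 at 1106 and 365 (-1.60, -1.73 to -1.46). Ccl6 (-0.07, -0.15 to 0.02) and Ccl9 (-0.43, -0.52 to -0.33) stayed within 2-fold. Dormant Ccl12 rested on few cells, with 50% of its UMIs in 2 cells and 56 of 200 in 1 cell, and without the richest cells its ratio over the class was -2.06 in place of -2.36.

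Between Recurrent and Dormant macrophage-class cells, 2 of 10 members were over 2-fold higher (9.93% of 9426 genes) and 6 lower (10.4% of genes). Ccl3 and Ccl4 were the higher genes, and Ccl2, Ccl5, Ccl6, Ccl7, Ccl8 and Ccl9 the lower. Within cluster 4, 1 of 9 members was higher (8.07% of genes) and 3 were lower (7.38% of genes). There the directions of Ccl4, Ccl6, Ccl8 and Ccl12 were opposite to those of the class. Ccl8 was at 1026 CPM in Dormant and 3085 in Recurrent cells of cluster 4 (1.59, 1.46 to 1.72), and Ccl4 at 860 and 264 (-1.70, -1.97 to -1.45). Ccl6 was at 2074 and 3633 CPM (0.81, 0.71 to 0.91). Ccl12 gave -0.40 (-0.78 to -0.02) in the cluster and 0.91 (0.70 to 1.13) in the class. Cluster 4 made up 145 of the 1271 Recurrent cells and held 63.0% of all Recurrent Ccl6 and 59.6% of Ccl8, but 26.3% of Ccl9.

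In the macrophage class, 4 of 10 members were over 2-fold higher in Recurrent than in Primary cells (4.16% of 10206 genes) and 0 lower (2.16% of genes). They were Ccl3 (1.14, 1.08 to 1.197), Ccl4 (1.18, 1.15 to 1.21), Ccl6 (1.05, 0.97 to 1.13) and Ccl8 (1.199, 1.11 to 1.29). In cluster 3, with 633 Primary and 870 Recurrent cells, Ccl3 was at 505 and 1015 CPM, a log2 ratio of 1.01, and Ccl4 at 1511 and 2880, a ratio of 0.93. Ccl12 was at 207 and 442 CPM there, a ratio of 1.09. Ccl6 (-0.10) and Ccl8 (-0.01) did not share this shift in cluster 3. In cluster 10, with 397 Primary and 138 Recurrent cells, Ccl3 gave 0.98, Ccl4 1.23, Ccl6 0.25 and Ccl8 1.17. Cluster 19 gave 0.80, 0.89, 0.27 and 0.02 for the same genes. In cluster 4, with 55 Primary and 145 Recurrent cells, Ccl3 (-0.54) and Ccl4 (-1.47) were lower and Ccl6 (0.90) and Ccl8 (1.12) higher. Ccl3 and Ccl4 were thus higher in the 3 clusters 3, 10 and 19 and lower in cluster 4, and the Ccl6 ratio was at most 0.27 in clusters 3, 10 and 19.

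Ccl3 and Ccl4 attract monocytes, T cells and NK cells and are induced when myeloid cells are activated. Over the macrophage class Ccl3 was at 392 CPM (379 to 404) in Primary cells, 122 (101 to 145) in Dormant cells, 80.6 (71.6 to 90.4) in Long-term dormant cells and 863 (844 to 883) in Recurrent tissue. Ccl4 was at 1039 (1019 to 1060), 686 (635 to 739), 142 (130 to 155) and 2355 (2322 to 2387) CPM. Both were lowest in Long-term dormant and highest in Recurrent cells. The log2 ratio of Ccl3 was -1.68 (-1.96 to -1.42) for Dormant against Primary and 2.82 (2.57 to 3.101) for Recurrent against Dormant tissue.

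The 2 genes were found in the same cells. After thinning to 1000 UMIs, Ccl4 was detected in 63.1% of Primary macrophage-class cells with a Ccl3 UMI and in 23.5% of those without one. The shares were 50% and 16.9% in Dormant cells, 34.1% and 7.30% in Long-term dormant cells and 77.1% and 37.6% in Recurrent tissue. Ccl7 was likewise detected in 26.6%, 50.9%, 46.4% and 23.5% of the cells with Ccl2 against 2.96%, 7.52%, 11.4% and 4.02% of those without it.

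Neutrophil-like cells were few but had very high Ccl3 and Ccl4. In the 52 Primary cells Ccl3 was at 12603 CPM (11539 to 13739) and Ccl4 at 21347 (19955 to 22811). In the 39 Recurrent cells they were at 8726 and 8460 CPM. These cells were 1.22% of the Primary library yet held 11.2% of its Ccl3 and 7.27% of its Ccl4. In Recurrent tissue they held 4.04% and 1.46%. Dormant and Long-term dormant tissue had 14 and 8 such cells, too few for a comparison.

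In the residual tissues other classes held more of the Ccl3 and Ccl4 UMIs. The macrophage class was 29.5% of Primary, 6.29% of Dormant, 19.2% of Long-term dormant and 27.5% of Recurrent cells, so its lower level and its lower cell share both enter these sources. Dormant Ccl3 was split evenly, with 119 UMIs (31.1%) in the macrophage class and 119 in T-like cells. Dendritic-like cells were the largest source of Long-term dormant Ccl4 (45.5%), ahead of the macrophage class (28.7%). Plasmacytoid dendritic-like cells had Ccl4 at 1439 CPM in Primary (21 cells), 351 in Dormant (128 cells), 1206 in Long-term dormant (146 cells) and 1829 in Recurrent tissue (25 cells). NK-like Ccl4 was at 153, 208, 374 and 71.7 CPM and T-like Ccl4 at 159, 99.7, 79.2 and 56.1 CPM. T-like and NK-like Ccl4 were both lowest in Recurrent tissue, where macrophage-class Ccl4 was highest.

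**Figure D4:**
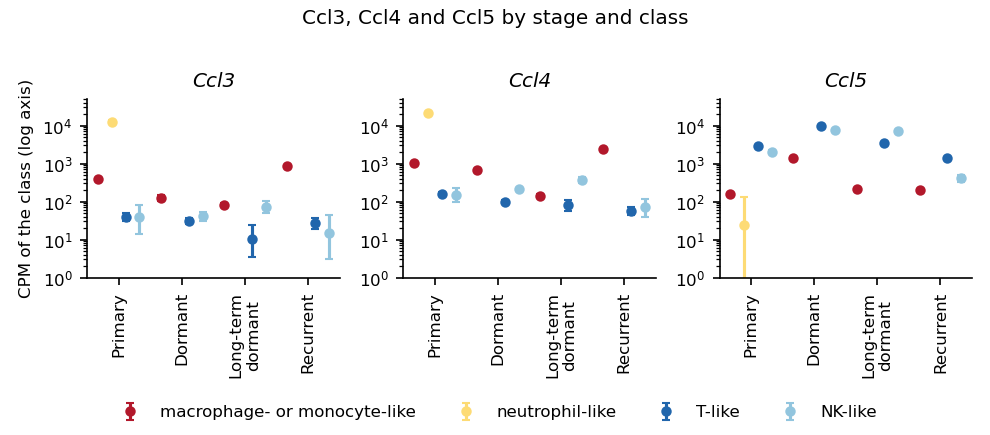
Levels of Ccl3, Ccl4 and Ccl5 (CPM of the class, log axis) in macrophage-class, neutrophil-like, T-like and NK-like cells, with 95% Poisson bars. Each stage library with at least 50 cells of the class is shown, and other classes are not drawn. Macrophage-class Ccl3 and Ccl4 are highest in Recurrent tissue, and T-like Ccl5 is higher in Dormant (9643 CPM) than in Primary tissue (2908 CPM).

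Ccl5, made by activated T and NK cells, was at 310.0, 4130, 576 and 117 CPM of the Primary, Dormant, Long-term dormant and Recurrent libraries. T-like Ccl5 was at 2908 CPM (2828 to 2989) in Primary cells, 9643 (9545 to 9742) in Dormant cells, 3384 (3221 to 3553) in Long-term dormant cells and 1393 (1331 to 1456) in Recurrent tissue. Dormant T-like cells were highest, with a log2 ratio to Primary of 1.73 (1.69 to 1.77), and Recurrent cells were lowest, with a ratio to Dormant of -2.79 (-2.86 to -2.73). NK-like Ccl5 was at 2004, 7776, 7431 and 410 CPM (325 to 510 for Recurrent tissue). NK-like cells thus differed little between Dormant and Long-term dormant tissue (-0.07, -0.12 to -0.01), while T-like cells were lower in Long-term dormant tissue (-1.51, -1.58 to -1.44).

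The T-like cells also lay in different clusters by stage. Cluster 15, led by the granzyme genes Gzmb and Gzmc, held 193 of 663 Primary and 175 of 403 Recurrent cells but 4 of 1289 Dormant and 8 of 274 Long-term dormant cells, and its Ccl5 was at 705 and 543 CPM in Primary and Recurrent tissue. Dormant Ccl5 was higher than Primary Ccl5 within each cluster with at least 50 cells in both, by 2.29 in cluster 5, 1.74 in cluster 8 and 1.55 in cluster 13. Recurrent against Dormant tissue gave -3.18, -2.04 and -2.11 in the same clusters. For Long-term dormant against Dormant tissue, cluster 5 was the only one with enough cells and gave -0.53 (-0.61 to -0.45), which is within 2-fold. The Recurrent-to-Primary ratio of the class, -1.06, was -0.89 to -0.30 in clusters 5, 8, 13 and 15. Of 13 genes of heat shock and early response, fixed as a list of handling stress, 4 were over 2-fold higher in Dormant than in Primary T-like cells and 0 lower. Egr1 was at 1.90, Hsp90aa1 at 1.78 and Dnajb1 at 1.51. The median of all genes was -0.06, and the share of all T-like genes past 2-fold is not given here. The part of these genes in the Ccl5 result was not tested.

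In Long-term dormant tissue the largest source of Ccl5 was the dendritic-like class, with 47.6% of the UMIs. Within it, 90 migratory dendritic-like cells (cluster 25, led by Fscn1, Tbc1d4 and Tmem123) had Ccl5 at 20903 CPM (20344 to 21474) and held 43.1% of all Ccl5 of that library. The same cells had Ccl5 at 19299 CPM in Primary (10 cells), 6695 in Dormant (13 cells) and 11626 in Recurrent tissue (10 cells). In the 10 Primary and 10 Recurrent cells, 1 cell held 52.7% and 69.9% of these UMIs. The other dendritic-like cells of Long-term dormant tissue were at 59.0 to 161 CPM.

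Some Ccl5 lay in Dormant epithelial-like cells, which should lack it. They were at 774 CPM, with a Ccl5 UMI in 22.4% of thinned cells and 60.1% of cells before thinning. Free RNA from T cells, taken to carry Ccl5 in the T-like ratio to Cd3d, Cd3e and Cd3g, would give 782 CPM there, so the observed level was 0.99 times that estimate. Plasma-like cells (630.5 CPM) were at 1.2 times such an estimate, fibroblast-like cells (724 CPM) at 1.8 times and the macrophage class (1421 CPM) at 3.2 times. Dendritic-like cells (1947 CPM) were at 1.3 times, but this class includes the migratory cells with high Ccl5 described above. The 9.13-fold higher Ccl5 of Dormant against Primary macrophage-class cells stands beside these values, and the part of free RNA or doublets in it was not tested. The doublet caller marked 0 Dormant cells.

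Ccl22, whose known main producers are mature dendritic cells, had 293, 229, 228 and 165 UMIs in the Primary, Dormant, Long-term dormant and Recurrent libraries. Dendritic-like cells held 67.2%, 59.0%, 81.6% and 69.1% of them. Within these, migratory dendritic-like cells were at 4043 CPM (3455 to 4702), 730 (547 to 955), 573 (484 to 674) and 1388 (1049 to 1803). The 10 Primary cells of that kind were highest. Few cells carried the gene, since 50% of its UMIs lay in 5, 6, 13 and 4 cells. In Dormant T-like cells, 66 Ccl22 UMIs were found, 71.2% of them in 1 cell. In Recurrent tissue 35.2% came from 31 type 1 dendritic-like cells, with 89.7% of those UMIs in 1 cell. IgG and Jag1 had 8 and 3 Ccl22 UMIs.

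**Figure D5:**
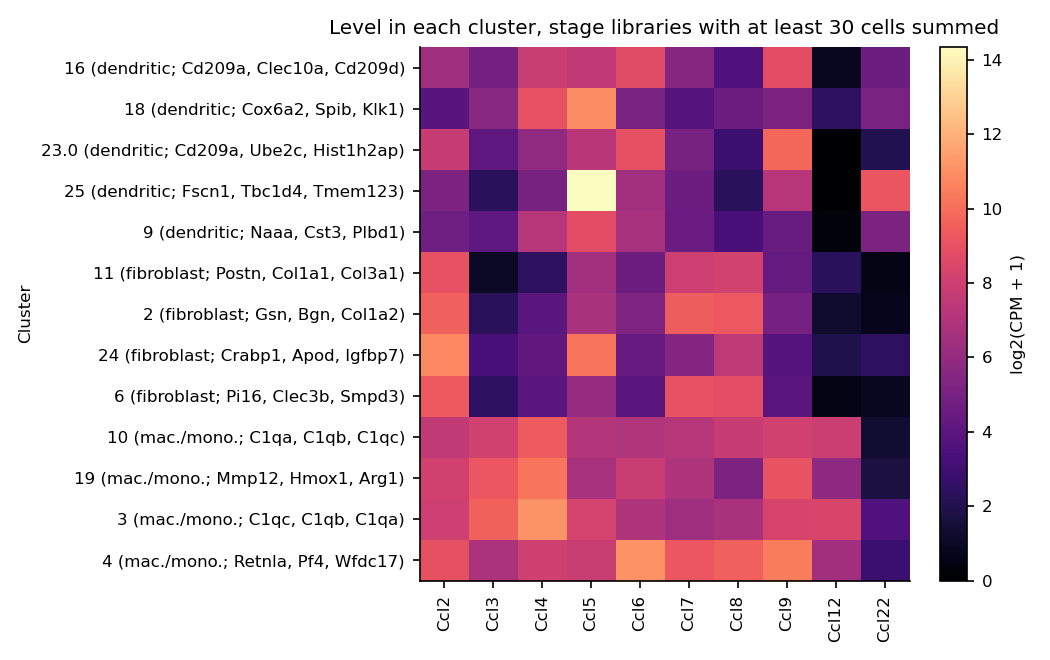
Levels of the 10 chemokines, as log2 of CPM plus 1 (colour), in 13 dendritic-like, fibroblast-like and macrophage-class clusters, summed over the stage libraries with at least 30 cells of the cluster. Ccl22 and Ccl5 stand out in cluster 25 (migratory dendritic-like), Ccl6 and Ccl9 in cluster 4, Ccl2 in the 4 fibroblast-like clusters and cluster 4, and Ccl7 and Ccl8 in cluster 4 and the fibroblast-like clusters other than 24.

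In the antibody libraries most cells were T-like, 1399 of 2117 in IgG and 1963 of 2722 in Jag1. NK-like cells numbered 87 and 147, T- or NK-like cells 122 and 50, and unnamed cells 217 and 359. The unnamed cells include clusters 5.0 to 5.6 of the antibody table, which all had the NK marker Ncr1 among their leading genes. The NK-like values below therefore leave out cells with an NK marker. T-like cells held 79.8% and 89.5% of Ccl5 and 64.4% and 70.4% of Ccl4. T-like Ccl5 was at 14120 CPM (14024 to 14216) in IgG and 19352 (19267 to 19438) in Jag1, a log2 ratio of 0.45 (0.44 to 0.47). T-like Ccl4 was at 360 and 291 CPM, a ratio of -0.31 (-0.39 to -0.23), and T-like Ccl3 at 23.3 and 41.2 CPM, a ratio of 0.82 (0.54 to 1.11). NK-like Ccl5 was at 10966 and 8556 CPM (-0.36, -0.41 to -0.30). None of these reached 2-fold. NK-like Ccl3 was at 42.1 CPM in IgG and 127 in Jag1, a log2 ratio of 1.56 (0.85 to 2.42), which was 0.86 without the richest cells.

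The macrophage class had 54 cells in IgG and 43 in Jag1, with median depths of 9597 and 977 UMIs, under the minimum of 50 cells set for a ratio in Jag1. Its levels are therefore given side by side. Ccl2 was at 1344 and 1171 CPM, Ccl6 at 834 and 505, Ccl9 at 752 and 622, Ccl7 at 396 and 142 and Ccl3 at 384 and 171 in IgG and Jag1. Ccl8 was at 39.8 and 813 CPM, from 17 and 166 UMIs, of which 1 cell held 82.4% and 53.6%. IgG T-like cells also carried 223 Ccl2 and 322 Ccl7 UMIs, against 3 and 1 in Jag1, and in IgG 1 cell held 48.9% of the Ccl2 and 1 cell 47.5% of the Ccl7.

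Some receptors and other ligands of the family were read in the same way. Transcripts of Ccr1, the receptor of Ccl6 and Ccl9, lay in the macrophage class for 95.1%, 69.0%, 71.1% and 95.5% in Primary, Dormant, Long-term dormant and Recurrent tissue. Ccr2, the receptor of Ccl2, Ccl7 and Ccl12, was at 56.3 CPM, 195, 377 and 89.6 in the macrophage class, highest in Long-term dormant tissue. Ccr4, the receptor of Ccl22, had 1, 3, 0 and 0 UMIs in the whole Primary, Dormant, Long-term dormant and Recurrent libraries. Of the other CC ligands, Ccl11 lay almost wholly in fibroblast-like cells, at 525, 198 and 201 CPM in Dormant, Long-term dormant and Recurrent tissue. Ccl20 lay in epithelial-like cells, at 12.7 CPM in Primary and 116 in Recurrent tissue.

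Early response genes of NF-kB, a pathway known to induce Ccl3 and Ccl4, were read from a list of 8. In the macrophage class 0 were over 2-fold higher (11.8% of genes) and 4 lower (10.1% of genes) in Dormant than in Primary tissue. Their median log2 ratio was -1.05 (all genes 0.05), with Il1a at -4.71, Il1b at -2.06 and Nfkbiz at -1.91. Against Dormant tissue, 7 were higher (9.93% of genes) and 0 lower (10.4% of genes) in Recurrent cells. Their median there was 1.63 (all genes -0.03), with Il1a at 4.41, Tnf at 2.99 and Nfkbiz at 2.42. These have the direction of Ccl3 in the same comparisons. Cells of the list's comparisons lie in different clusters, as for the members.

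Over 25 points of log2 CPM, each a class with at least 50 cells in a stage library, the members also paired by level. Pearson's r was 0.96 for Ccl3 with Ccl4, 0.91 for Ccl2 with Ccl7, 0.91 for Ccl6 with Ccl9, 0.83 for Ccl2 with Ccl8 and 0.27 for Ccl2 with Ccl12. Points of a library share its depth and free RNA, so these values are a description. Among 12123 genes with at least 100 UMIs, those most like Ccl3 were Osm (0.90), Tnf (0.89) and Rabgef1 (0.87), and those most like Ccl4 were Osm (0.92), Plek (0.90) and Tnf (0.88). Clec4a2 was among the most alike for both Ccl6 (0.92) and Ccl9 (0.93), and Lpl for both Ccl2 (0.91) and Ccl7 (0.95). Ccl5 was most like S1pr4 (0.93), Ccl12 most like Fcgr4 (0.92), Ccl8 most like Fn1 (0.87) and Ccl22 most like Xcr1 (0.92), followed by Cdh5 (0.89). The points hold all dendritic-like types as 1 class, so they do not separate these types. Summed over stage libraries with at least 30 cells, Ccl22 was at 573 CPM in migratory cluster 25 but 35.9 in type 1 cluster 9.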

How the data were processed

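Single-cell RNA was measured in 6 libraries, 1 per group. The deposited values are UMI counts per gene and cell, which the authors made with Cell Ranger 3.1.0 and FastQC on mm10, per the submitters' processing notes. The annotation and any filter before deposit are not given in the sources used here.

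Cells needed 500 UMIs, 200 genes and a mitochondrial share of at most 20%. Scrublet (in scanpy 1.11.5, Python 3.11.15) marked 53, 0, 137, 57, 5 and 7 doublets in Primary, Dormant, Long-term dormant, Recurrent, IgG and Jag1, which were removed. Its shares in Dormant, IgG and Jag1 are too low for the caller to have worked. Each table was clustered on its own (counts scaled to 10000, natural log, 2000 variable genes without chemokine and chemokine receptor genes, values clipped at 10, 30 components, 15 neighbours, Leiden resolution 1 with leidenalg 0.10.2). Unnamed clusters were divided once more. Clusters were named from lists for 24 cell types when at least 3 markers were in 10% of cells and at 25% of the highest cluster's level. A name was withheld when a second class scored above 0.5 times the first. It was also withheld when another class had more markers among the cluster's top 10 genes, or when depth was low and no own marker was among them. This naming rule was set after the clusters had been seen, so class limits are rebuilt here and not those of the study.

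UMIs were summed by class and library. CPM has exact Poisson intervals, shares have Clopper-Pearson intervals, and log2 ratios, with 0.5 counts added, have intervals from the conditional binomial distribution. These 95% intervals cover counting error only. A ratio needed 50 cells in each library and 20 UMIs over both, and past 2-fold was called higher or lower. A count of 0 allows up to 3 UMIs. With 1 library per group no test was made. TMM factors of edgeR 4.0.16 (R 4.3.3) served as an alternative scaling. On simulated counts, 199 of 200 changed genes were recovered for Dormant against Primary (9511 genes) and 200 of 200 for Long-term dormant against Dormant (8410 genes). The planted changes were well past 2-fold, in genes with many UMIs and with counting noise only. This checks the calculation and does not give the accuracy of calls near 2-fold, from 20 UMIs or between single libraries. All members were named in every library. Of other lists, the genes with the largest ratios were named, up to 3 per comparison. The members and lists were chosen with earlier results of these data known. Fibroblast-like comparisons were added after seeing the data.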

Additional observations from a re-analysis of the deposited data

How the results depend on the processing

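Of the single log2 ratios under all alternatives, 591 kept their direction and size, 143 moved and 1 reversed, that of Ccl3 in T-like cells for Long-term dormant against Dormant tissue (-1.45, and 0.033 with a fixed doublet rate). Of the single source shares, 338 stayed the same within error, 107 moved and 0 reversed. Of the member counts, 210 stayed within 1.5 times the reported value and 26 moved. The source counts of IgG and Jag1, 5 and 6, were 0 with first-round clusters only, since no macrophage class is named there. For Dormant against Primary macrophage-class cells, the members lower numbered 2 in place of 1 with TMM factors and without the cell with most UMIs of each member. For Long-term dormant against Dormant, the members higher numbered 0 in place of 1 (Ccl22) with the stricter cell filter, predicted doublets kept, a fixed doublet rate, Leiden resolution 0.5, chemokine genes among the variable genes, TMM factors, the mean over cells, a minimum of 100 UMIs and without the richest cells. In fibroblast-like cells of that comparison, the members higher numbered 2 in place of 4 with a fixed doublet rate, and the members lower 2 in place of 1 with the mean over cells, a minimum of 5 UMIs and without the richest cells. For Recurrent against Dormant fibroblast-like cells, the members lower numbered 1 in place of 2 with doublets kept, a fixed doublet rate, TMM factors, scaling without mitochondrial, ribosomal and haemoglobin genes, the mean over cells, a minimum of 100 UMIs and without the richest cells. The members higher there numbered 4 with a minimum of 5 UMIs and 1 with 100. The cause was not tested. The removal of the richest cells, the ratios within T-like and epithelial-like clusters, the fibroblast-like class and a naming limit of 0.6 were chosen after seeing the data. Across settings, 30 to 36 of the 33 to 36 ratios past 2-fold stayed past it. Jag1 against IgG macrophage-class counts could not be fitted, because Jag1 had 43 such cells. No paired analysis was possible because each group is 1 library.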

Other observations

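Some chemokine family genes outside the 10 members also differed between the stage libraries. Ccl24, an eosinophil attractant, was at 6.72, 71.5, 59.3 and 8.28 CPM in the macrophage class of Primary, Dormant, Long-term dormant and Recurrent tissue, so it was higher in both residual tissues, as Ccl6 and Ccl9 were. Ccl17, which shares the receptor CCR4 with Ccl22, was at 112, 17.4, 13.5 and 306 CPM in dendritic-like cells of the same libraries. In Recurrent tissue 41.3% of the Ccl17 UMIs lay in the macrophage class, in 5 cells. Ccr7, the receptor that guides dendritic cells and naive T cells to lymph nodes, was at 153, 147, 139 and 327 CPM in dendritic-like cells, and at 45.2, 179, 41.7 and 47.3 CPM in T-like cells. Each of these differences is between single libraries and was not tested.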
